A study of Mus musculus with 16 samples.

Results

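Granzymes are serine proteases of cytotoxic granules, and killer-cell lectin receptors are C-type lectin receptors of natural killer (NK) cells and T cells. Both were followed in mouse bone marrow-derived dendritic cells (BMDCs) with or without c-di-GMP, a bacterial cyclic dinucleotide that STING, the product of *Tmem173*, senses. The members were all genes of the deposited table whose symbol is *Gzm* with a letter from a to n, or *Klr* with a letter from a to k and an optional number. They came to 41 of 23356 genes, 10 granzymes and 31 lectin receptors.

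BMDCs of 4 genotypes were compared: C57BL/6 (WT), *Tmem173*-/-, *Irf1*-/- and *Irf3/7*-/-, the last lacking both IRF3 and IRF7. All cultures had grown in GM-CSF and IL-4, and each was left untreated or received c-di-GMP at 25 µg/ml (per the labels) for 18 h. The 8 conditions had 2 labelled samples each, and Cuffdiff combined them into 1 FPKM (mapped fragments per kilobase of a gene's transcript, scaled to library size) with a confidence interval, so no spread between replicates and no p-value was computed. The floating and loosely attached cells were taken as BMDCs, and no sorting step is described for them. Per the study's methods the mice were young adults of matched sex. IRF1, IRF3 and IRF7 are transcription factors of the interferon system.

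Granzymes are stored with perforin, which lets them enter a target cell, where granzyme B cleaves caspases and other proteins after aspartate and granzyme A acts as a tryptase. The lectin receptors read MHC class I and stress ligands on other cells: most Ly49 receptors (*Klra* genes) and the CD94/NKG2A pair (*Klrd1* and *Klrc1*) inhibit killing, and NKG2D (*Klrk1*) activates it. Dendritic cells are not known as a main source of granzymes A or C or of most Ly49 receptors.

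A gene was tested in a comparison when it reached 1 FPKM in at least 1 of the 2 conditions, and was called higher or lower when its FPKM, with 0.1 added, differed by more than 2-fold and the deposited intervals did not overlap. In all, 18 members reached 1 FPKM somewhere, 7 granzymes and 11 receptors. The other 23 members stayed under it in all 8 conditions, with a median highest value of 0.121 FPKM. The nearest to the limit was *Klrg1*, with a highest value of 0.870 FPKM, and the granzymes among them were *Gzmk*, *Gzmm* and *Gzmn*. The 20 receptors among them were *Klra10*, *Klra12*, *Klra14*, *Klra15*, *Klra17*, *Klra18*, *Klra19*, *Klra21*, *Klra22*, *Klra23*, *Klra33*, *Klra4*, *Klra5*, *Klra8*, *Klrb1*, *Klrc2*, *Klrc3*, *Klrg1*, *Klri1* and *Klri2*. *Klra33* was listed at 0 throughout. Of the members, 17 *Klra* genes were listed under 1 locus of 18 genes, so reads of these near-identical genes may have been shared out among them and their single values are uncertain.

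Of the libraries as a whole, *Tmem173* was at 103 FPKM in untreated and 118 in treated WT BMDCs against 8.97 and 7.49 in *Tmem173*-/-. *Irf1* was still at 25.9 and 116 FPKM in *Irf1*-/- BMDCs, against 149 and 245 in WT and 24.1 and 23.3 in *Tmem173*-/-. *Irf3* was at 7.74 and 20.2 FPKM in *Irf3/7*-/- against 19.9 and 15.8 in WT BMDCs. *Irf7* was at 1.07 and 4.97 FPKM in *Irf3/7*-/-, against 15.2 and 687 in WT and 3.17 and 3.37 in *Tmem173*-/- BMDCs. The value of *Irf3* in the treated condition labelled *Irf3/7*-/- did not lie below the 15.8 FPKM of treated WT BMDCs. *Irf3* was also called higher with c-di-GMP in that genotype. A whole-gene FPKM counts exons outside a deletion too, but single exons were not read, so the cause of these values was not tested. Dendritic cell markers were present in every condition, with 7 or 8 of 8 at 1 FPKM or more and a sum between 4594 and 8012 FPKM. *Cd74* alone was at 3336 to 4983 FPKM of that sum. Against WT, *H2-Ab1* and *H2-Eb1* were called lower in *Irf1*-/- and *Ccr7* in *Tmem173*-/- BMDCs, in both cases with and without c-di-GMP. *Cd209a* was called higher in *Tmem173*-/- with and without c-di-GMP and in untreated *Irf1*-/-, *Itgax* in treated *Tmem173*-/- and *Flt3* in treated *Irf3/7*-/- BMDCs.

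The cluster of *Gzmb* to *Gzme* lies on chromosome 14 and *Gzma* on chromosome 13, and the 5 sequences below are the 250 bases before the RefSeq start (GRCm38.p6), each written on the minus strand on which the gene runs. They were chosen as the 3 most abundant granzymes, 1 of the c-di-GMP-responsive cluster genes and the receptor that fell. Capitals mark matches to any of the 4 elements searched on both strands: GAAA, NN and GAAA in a row (IRF element), TTCNNNGAA (STAT element), AGGTGTGA (T-box element) and TGTGGT (Runx element).
Gzma, chr13:113100982-113101231: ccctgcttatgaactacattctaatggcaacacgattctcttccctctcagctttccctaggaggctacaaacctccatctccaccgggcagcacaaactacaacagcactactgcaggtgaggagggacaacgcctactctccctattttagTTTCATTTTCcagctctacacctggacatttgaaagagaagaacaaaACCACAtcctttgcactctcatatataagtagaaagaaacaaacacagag
Gzmb, chr14:56262335-56262584: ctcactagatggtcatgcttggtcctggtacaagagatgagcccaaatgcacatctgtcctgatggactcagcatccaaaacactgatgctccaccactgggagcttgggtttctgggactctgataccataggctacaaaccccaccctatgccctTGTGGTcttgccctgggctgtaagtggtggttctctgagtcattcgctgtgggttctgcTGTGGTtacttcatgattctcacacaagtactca
Gzmc, chr14:56234658-56234907: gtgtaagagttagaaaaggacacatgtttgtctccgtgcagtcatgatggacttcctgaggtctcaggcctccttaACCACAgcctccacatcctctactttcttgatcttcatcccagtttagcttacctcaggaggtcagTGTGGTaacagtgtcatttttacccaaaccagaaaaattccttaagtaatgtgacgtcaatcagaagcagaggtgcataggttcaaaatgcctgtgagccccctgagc
Gzmg, chr14:56159580-56159829: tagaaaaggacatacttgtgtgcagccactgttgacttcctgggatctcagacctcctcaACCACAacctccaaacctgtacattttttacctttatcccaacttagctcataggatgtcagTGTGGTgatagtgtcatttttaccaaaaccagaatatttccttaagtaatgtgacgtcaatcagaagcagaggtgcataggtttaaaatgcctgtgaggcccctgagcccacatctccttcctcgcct
Klra2, chr6:131247363-131247612: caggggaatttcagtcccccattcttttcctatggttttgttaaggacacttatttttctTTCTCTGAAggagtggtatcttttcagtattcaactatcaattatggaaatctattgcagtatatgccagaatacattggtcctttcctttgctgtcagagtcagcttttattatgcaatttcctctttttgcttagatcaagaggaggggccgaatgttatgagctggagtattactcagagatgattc
In *Gzma* the IRF element (bases -97 to -88) and a Runx element stand in capitals, in *Gzmb*, *Gzmc* and *Gzmg* a pair of Runx elements each, and in *Klra2* a STAT element (bases -190 to -182).

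Promoters were found for 29 members, 34 in all. The Runx letters were in 15 of the 34 (44.1%), among them at least 1 promoter of each of *Gzma* to *Gzmg*, against 14.05% of 32851 promoters. In *Gzmc*, *Gzmd*, *Gzme*, *Gzmf* and *Gzmg* they occurred once on each strand. These are neighbouring copies of one gene family, so their sequences are not independent. The 15 also count *Klrc2* through overlapping windows that hold the same sites, and the window of *Klrc3* is closely similar to them. The IRF letters were in 1 member promoter, that of *Gzma* (2.94%, against 2.98% of all), the STAT letters in 4 (11.8%, against 7.02%), and the T-box letters in none (1.12% of all). A match describes the letters in this window and not a bound site.

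*Gzma*, *Gzmb* and *Gzmc* were abundant in WT and *Irf3/7*-/- BMDCs, far lower in *Irf1*-/- BMDCs, and at or near 0 in *Tmem173*-/- BMDCs, with or without c-di-GMP. *Gzmb* (GRCm38, chr14:56258838-56262260, minus strand) was at 321 FPKM (interval 246 to 397) in untreated and 336 (258 to 415) in treated WT BMDCs. In *Irf3/7*-/- BMDCs it was at 362 (277 to 446) untreated and 1242 (938 to 1547) treated, and in *Irf1*-/- BMDCs at 10.0 (7.5 to 12.5) and 18.7 (14.3 to 23). In *Tmem173*-/- BMDCs it was at 0.0685 and 0.0750 FPKM, with intervals that reached 0. In order of level, treated *Irf3/7*-/- BMDCs stood above the rest, the intervals of untreated *Irf3/7*-/- and both WT conditions overlapped, and *Irf1*-/- and then *Tmem173*-/- followed, each apart from the group above it.

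*Gzma* (chr13:113093825-113100981, minus strand) was at 349 FPKM (250 to 447) untreated and 329 (239 to 412) treated in WT BMDCs. It was at 315 (226 to 403) and 899.8 (643 to 1145) in *Irf3/7*-/-, and at 5.55 (3.67 to 7.29) and 8.40 (5.80 to 10.9) in *Irf1*-/- BMDCs. Both *Tmem173*-/- conditions listed it at 0. *Gzmc* (chr14:56231441-56234656, minus strand) was at 197 (145 to 248) and 206 (151 to 260) FPKM in WT, 156.5 (115 to 198) and 388 (285 to 491) in *Irf3/7*-/-, and 3.69 (2.43 to 4.98) and 6.07 (4.17 to 8.0) in *Irf1*-/- BMDCs, and was listed at 0 in both *Tmem173*-/- conditions. The order of the conditions was the same for the 3 genes except within the overlapping WT and untreated *Irf3/7*-/- conditions.

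**Figure D1:**
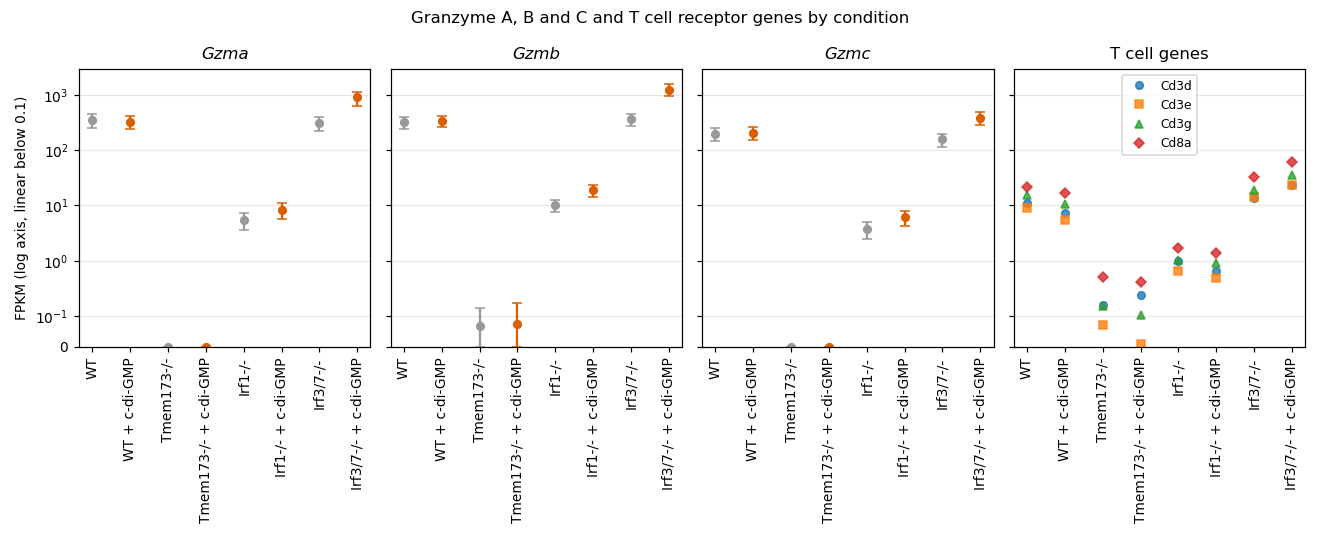
FPKM of *Gzma*, *Gzmb* and *Gzmc* in the 8 conditions with the deposited confidence intervals as bars, and of the T cell genes *Cd3d*, *Cd3e*, *Cd3g* and *Cd8a* without intervals, on a log axis that is linear below 0.1; grey is untreated and orange c-di-GMP. *Gzmb* runs from 0.0685 FPKM in untreated *Tmem173*-/- to 1242 FPKM in treated *Irf3/7*-/- BMDCs, and the T cell genes are also lowest in *Tmem173*-/- and highest in treated *Irf3/7*-/- BMDCs.

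*Gzma*, *Gzmb* and *Gzmc* together made up between 97.7% and 99.5% of the summed granzyme FPKM outside *Tmem173*-/- BMDCs. The sum over the 10 granzymes was 875 and 892 FPKM in untreated and treated WT BMDCs, 0.331 and 0.343 in *Tmem173*-/-, 19.6 and 33.6 in *Irf1*-/-, while *Irf3/7*-/- BMDCs had 837 and 2561. In treated *Irf3/7*-/- BMDCs *Gzmb* ranked 62, *Gzma* 105 and *Gzmc* 250 among all genes by FPKM. Of 675 genes at 100 FPKM or more in both WT conditions, 3 were listed at 0 in both *Tmem173*-/- conditions: *Gzma*, *Gzmc* and *Mir762*.

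In sum, genes of T cells were likewise lowest in *Tmem173*-/- and highest in treated *Irf3/7*-/- BMDCs. The 12 T cell markers summed to 105 FPKM in untreated and 68.4 in treated WT BMDCs, 9.66 and 8.84 in *Tmem173*-/-, 14.7 and 16.1 in *Irf1*-/-, while *Irf3/7*-/- BMDCs had 137 and 237. *Cd8a*, the CD8 alpha chain, was at 21.8 and 16.5 FPKM in WT, 0.497 and 0.414 in *Tmem173*-/-, 1.70 and 1.40 in *Irf1*-/-, while *Irf3/7*-/- BMDCs had 33.2 and 60.8. *Cd4* was at or under 0.154 FPKM in all 8 conditions. The sum in *Tmem173*-/- was mostly *Cd6* and *Lat*. *Cd6*, a T cell surface receptor, was at 3.85 and 0.725 FPKM in WT and at 4.19 and 4.07 in *Tmem173*-/- BMDCs, and was called higher there after c-di-GMP. *Lat*, a T cell adaptor, was at 8.87 and 7.93 FPKM in WT and at 3.96 and 3.11 in *Tmem173*-/- BMDCs. In *Irf1*-/- BMDCs the higher sum with c-di-GMP came from *Lck* and *Lat*. *Lck* went from 1.26 to 6.16 FPKM there and was called higher, and *Lat* went from 2.99 to 4.18. All other markers of the list had lower values with c-di-GMP in that genotype.

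The NK cell markers were divided. Of the 10, *Ncr1* reached at most 0.661 FPKM, *Itga2* 0.131 and *S1pr5* 0.0203. *Eomes*, a T-box factor of NK and CD8 T cells, was at 8.02 and 2.24 FPKM in WT, 0.0106 and 0.0115 in *Tmem173*-/-, 1.29 and 0.586 in *Irf1*-/-, while *Irf3/7*-/- BMDCs had 13.6 and 6.36. *Tbx21*, or T-bet, was at 4.86 and 1.90 FPKM in WT, 0.351 and 0.241 in *Tmem173*-/-, 1.20 and 0.742 in *Irf1*-/-, while *Irf3/7*-/- BMDCs had 10.5 and 9.78. In untreated *Tmem173*-/- and untreated *Irf1*-/- against WT 6 of 7 NK cell markers tested were called lower, where 5.95% and 3.52% of genes were. In treated *Irf3/7*-/- against WT 5 of 6 were called higher, where 4.61% of genes were. *Klrb1c*, *Prf1* and *Cd160* passed the 1 FPKM limit in both untreated comparisons only through WT, as did *Eomes* and *Tbx21* against *Tmem173*-/-. The list summed to 81.3 and 50.3 FPKM in WT, 42.0 and 33.2 in *Tmem173*-/-, 19.8 and 7.68 in *Irf1*-/-, while *Irf3/7*-/- BMDCs had 125 and 191. *Sh2d1b1* alone made up 39.0 and 30.7 FPKM of that sum in *Tmem173*-/- BMDCs, and *Nkg7* and *Prf1* are also among the granule genes described further on. In these bulk samples fewer cells of a type and less RNA per cell cannot be told apart, and the part of T cells or NK cells in the granzyme levels was not tested.

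**Figure D2:**
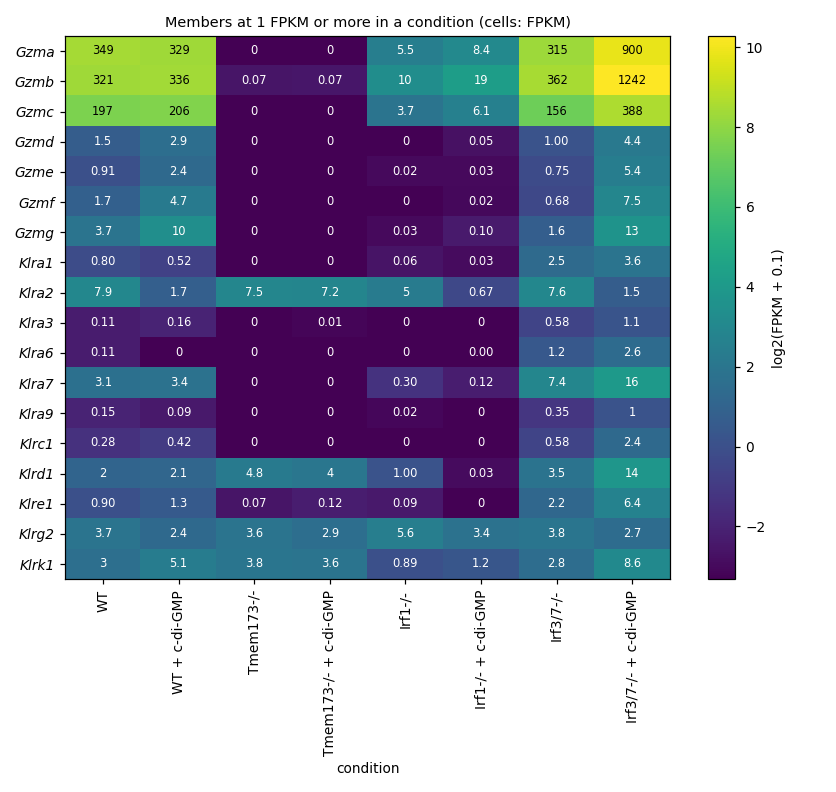
The 18 members that reached 1 FPKM (rows) in the 8 conditions (columns), coloured by log2(FPKM + 0.1), with the FPKM printed in each cell. Granzymes and most Ly49 receptors are at or near 0 in *Tmem173*-/- BMDCs, whereas *Klra2*, *Klrd1*, *Klrg2* and *Klrk1* are at 2.94 FPKM or more there.

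The ratio of *Gzmb* or *Gzma* to the summed FPKM of *Cd3d*, *Cd3e* and *Cd3g* was a measure chosen after these values were seen. Over the 3 genotypes with STING this ratio varied less than the granzyme itself, but it was far lower in *Tmem173*-/- BMDCs. For *Gzmb* it was 9.04 in untreated and 14.4 in treated WT BMDCs, 3.78 and 9.21 in *Irf1*-/-, while *Irf3/7*-/- BMDCs had 7.65 and 15.1. For *Gzma* it was 9.83 and 14.1 in WT, 2.10 and 4.14 in *Irf1*-/-, while *Irf3/7*-/- BMDCs had 6.66 and 10.9. In *Tmem173*-/- BMDCs it was 0.180 and 0.212 for *Gzmb*, over *Cd3* sums of 0.380 and 0.354 FPKM, and 0 for *Gzma*. With c-di-GMP the *Gzmb* ratio was higher in each genotype with STING, by 0.68 in WT, 1.28 in *Irf1*-/- and 0.98 in *Irf3/7*-/- on the log2 scale. The *Gzmc* ratio changed by 0.67, 1.10 and 0.51, and the *Klra7* ratio by 0.72, -0.98 and 0.32. In *Irf1*-/- BMDCs the *Cd3* sums were only 2.65 and 2.03 FPKM, with *Cd3d* and *Cd3e* under 1 FPKM. The narrower range of the ratio follows in part from the choice of the *Cd3* genes, and its cause was not tested.

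The 5 genes whose log2(FPKM + 0.1) followed that of *Gzmb* most closely over the 8 conditions, among 11811 genes, were *Gzma* (Pearson r = 0.998), *Gzmc* (0.997), *Il2rb*, the beta chain of the IL-2 and IL-15 receptors (0.991), *Cd96* (0.987) and *Csf2*, which encodes GM-CSF (0.986). *Il2rb* went from 0.0385 FPKM in treated *Tmem173*-/- to 145 in treated *Irf3/7*-/- BMDCs. The 8 conditions differ in genotype and share their libraries between genes, so these are descriptions.

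In the response to c-di-GMP, *Gzme*, *Gzmf* and *Gzmg* rose in WT BMDCs, and *Gzma*, *Gzmb* and *Gzmc* were not called. Of the 41 members, 13 were tested in treated against untreated WT BMDCs, 3 were called higher and 1 lower, where 20.5% of the 11201 genes tested were called, 10.5% higher and 9.96% lower. *Gzmg* went from 3.68 FPKM (2.45 to 4.89) to 10.5 (7.6 to 13.4), 2.80-fold. *Gzmf* went from 1.69 (0.962 to 2.41) to 4.75 (3.15 to 6.30), 2.70-fold. *Gzme* went from 0.913 (0.474 to 1.38) to 2.39 (1.51 to 3.23), 2.46-fold, and so passed the 1 FPKM limit through the treated condition. These granzymes are known from activated cytotoxic cells of the mouse. *Gzmd*, at 1.5 (0.849 to 2.12) and 2.91 (1.87 to 3.90), was not called. The median log2 change was 0.11 over the 13 tested members and 0.91 over the 7 granzymes, against 0.0033 over all genes tested.

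In *Irf3/7*-/- BMDCs c-di-GMP raised all 7 granzymes that were tested, with smaller folds for the 3 abundant ones than for the 4 rare ones, a contrast that was not tested. Of 18 members tested, 12 were called higher and 1 lower, where 17.9% of genes were called, 10.2% higher and 7.68% lower. *Gzmd*, *Gzme*, *Gzmf*, *Klrc1*, *Klra3* and *Klra9* were under 1 FPKM untreated and entered the count through the treated condition. The count thus does not measure how often members rose, and the contrast of folds and the medians below carry the same selection. The folds were 2.86 for *Gzma*, 3.44 for *Gzmb* and 2.48 for *Gzmc*, and 4.15 for *Gzmd*, 6.39 for *Gzme*, 9.84 for *Gzmf* and 7.54 for *Gzmg*. *Gzmf* went from 0.677 (0.306 to 1.01) to 7.55 FPKM (5.34 to 9.76) and *Gzmg* from 1.60 (0.961 to 2.27) to 12.7 (9.35 to 16.1). *Gzmd* went from 0.996 (0.509 to 1.44) to 4.45 (2.97 to 5.90) and *Gzme* from 0.754 (0.345 to 1.12) to 5.35 (3.66 to 7.02). The median log2 change was 2.05 over the granzymes and 1.5 over the 18 members, against 0.0045 over all genes tested. Of the 11 T cell markers tested in the same comparison 1, *Cd28*, was called higher, with a list median of 0.72.

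**Figure D3:**
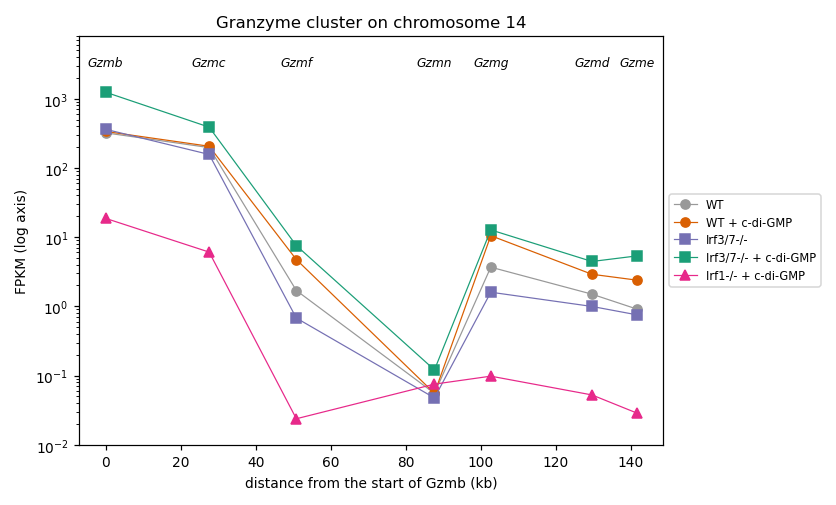
FPKM (log axis) of the 7 granzymes of the chromosome 14 cluster against the distance of their starts from that of *Gzmb* in kb, in 5 conditions; a value listed at 0 is left out. *Gzmb* and *Gzmc*, within 27.6 kb, are far above *Gzmf* to *Gzme*, and treated WT lies above untreated WT at *Gzmf* (50.8 kb), *Gzmg* and *Gzme*, which were called, while *Gzmd*, *Gzmb* and *Gzmc* were not called.

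Along the cluster the level did not fall evenly with distance. From the start of *Gzmb*, *Gzmc* starts 27.6 kb away, *Gzmf* 50.8, *Gzmn* 87.7, *Gzmg* 103, *Gzmd* 130 and *Gzme* 142 kb, all on the minus strand. *Gzmn* was at 0.121 FPKM or less in all conditions although the genes on both sides were at 7.55 and 12.7 FPKM in treated *Irf3/7*-/- BMDCs. *Mcpt8* and *Ctsg*, proteases of basophils and of neutrophils beyond the *Gzme* end, were not at 0 in *Tmem173*-/- BMDCs: *Mcpt8* was at 28.4 and 20.2 FPKM and *Ctsg* at 22.1 and 16.2. *Cma1*, a mast cell chymase gene there, was at 0.649 and 0.476 FPKM in WT and at 0.0354 and 0.0143 in *Tmem173*-/- BMDCs.

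In *Irf1*-/- BMDCs 6 members were tested in treated against untreated cells and 1 receptor and no granzyme was called, where 17.5% of genes were called, 9.67% higher and 7.81% lower. The intervals of *Gzmb* did not overlap there, but its change was under 2-fold. In *Tmem173*-/- BMDCs 4 members, all receptors, were tested and 0 called, where 0.0552% of genes were called, 0.046% higher and 0.0092% lower.

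The response in *Irf3/7*-/- BMDCs exceeded that in WT for each of the 7 granzymes, by an interval that left out 0. The difference of the log2 responses, *Irf3/7*-/- minus WT, was 1.71 for *Gzmb* (interval 1.03 to 2.40, from the deposited bounds combined in quadrature). It was 1.60 (0.80 to 2.40) for *Gzma*, 1.25 (0.48 to 2.01) for *Gzmc* and 1.87 (0.79 to 2.94) for *Gzmf*. For *Gzmd*, *Gzme* and *Gzmg* it was 1.14, 1.38 and 1.43, and the lower bound for *Gzmd* was 0.063. Of the 17 members with such a difference, 9 had an interval above 0 and none one below it. The share of all genes with such an interval was not computed. *Klrc1*, *Klra3* and *Klra9* reached 1 FPKM only in treated *Irf3/7*-/- BMDCs, so the count does not measure how often members differed. The same difference was 1.40 for *Cd3d*, 1.45 for *Cd3e*, 1.39 for *Cd3g*, 1.27 for *Cd8a* and 1.49 for *Cd8b1*, with intervals that also left out 0, and the part of T cells in the granzyme differences was not tested.

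**Figure D4:**
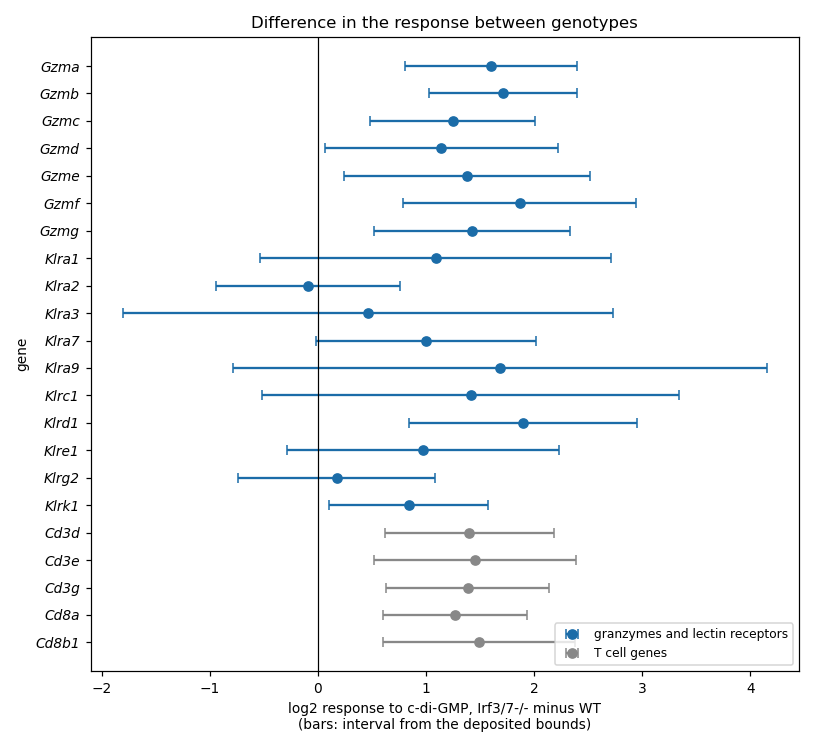
Difference of the log2 response to c-di-GMP, *Irf3/7*-/- minus WT, for the members (blue) and for T cell genes (grey), with the interval from the deposited bounds as bars. The 7 granzymes lie between 1.14 and 1.87 and the 5 T cell genes between 1.27 and 1.49, while *Klra2* and *Klrg2* lie near 0.

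Between *Irf1*-/- and WT the response differed by 0.83 (0.14 to 1.51) for *Gzmb*, higher in *Irf1*-/-. *Gzme* was at 0.0250 and 0.0287 FPKM in *Irf1*-/- BMDCs, under the 0.1 FPKM added, so its response there could not be measured. For *Gzma* and *Gzmc* the differences were 0.68 (-0.17 to 1.52) and 0.64 (-0.21 to 1.49), with intervals that held 0. Every difference of responses used the same 2 WT conditions.

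Between genotypes after c-di-GMP, all 7 tested granzymes were lower without STING and without IRF1, and 3 were higher without IRF3 and IRF7. Of the receptors, 2 of 6 tested were lower without STING, 5 of 6 lower without IRF1 and 6 of 11 higher without IRF3 and IRF7. In *Tmem173*-/- against WT, 13 members were tested, 9 called lower and 1 higher, where 26.3% of genes were called, 13.5% lower and 12.9% higher. The 9 were *Gzma* to *Gzmg*, *Klra7* and *Klre1*, the 1 higher was *Klra2*, and 7 of the 13 were listed at 0 in treated *Tmem173*-/- BMDCs. Neutrophil markers moved the other way, with 6 of 7 tested called higher and a sum of 14019 FPKM in treated *Tmem173*-/- against 1806 in treated WT BMDCs. In the same comparison 9 of 10 T cell markers and 4 of 5 NK cell markers tested were lower, and 3 of 4 B cell markers were higher. The part of these cells in the lower granzyme values was not tested.

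In treated *Irf1*-/- against WT BMDCs, 12 of 13 tested members were called lower, where 7.56% of genes were called, 4.91% lower and 2.65% higher, and the exception was *Klrg2*. The levels were 38.7-fold lower for *Gzma*, 17.9-fold for *Gzmb*, 33.3-fold for *Gzmc*, 53.5-fold for *Gzmg* and 39.2-fold for *Gzmf* on the scale with 0.1 FPKM added. Of 9 T cell markers tested, 7 were called lower. In treated *Irf3/7*-/- against WT, 18 members were tested and 9 called higher, where 7.3% of genes were called, 4.61% higher and 2.69% lower. *Gzmb* was 3.69-fold, *Gzma* 2.74-fold and *Gzme* 2.19-fold higher, and *Gzmc*, *Gzmd*, *Gzmf* and *Gzmg* were not called. All 11 T cell markers tested and all 8 basophil and mast cell markers were called higher in the same comparison, the latter with a sum of 271 FPKM against 89.0 in treated WT BMDCs. Their part in the member values was not tested. In *Irf1*-/- against *Irf3/7*-/-, both treated, 15 of 18 were lower, where 9.84% of genes were called, 6.62% lower and 3.22% higher. Members passed the 1 FPKM limit in these comparisons mainly through the genotype where they were high, and the first 3 comparisons share the treated WT condition.

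Without c-di-GMP all 6 tested granzymes were already lower in *Tmem173*-/- and *Irf1*-/- than in WT BMDCs, whereas *Gzma* and *Gzmb* were not called in *Irf3/7*-/- and *Klra2* was not called in *Tmem173*-/-. In untreated *Tmem173*-/- against WT BMDCs 11 members were tested, 7 called lower and 1 higher, where 11% of genes were called, 5.95% lower and 5.04% higher. In untreated *Irf1*-/- against WT 8 of 11 were lower, where 4.78% were called and 3.52% lower. The 7 lower in *Tmem173*-/- passed the 1 FPKM limit only through WT, as did *Gzmd*, *Gzmf*, *Gzmg*, *Klra7* and *Klrk1* against *Irf1*-/-. The counts thus do not measure how often members were lower. Of 11 T cell markers tested, 10 were lower in both comparisons. *Gzma* was 61.9-fold, *Gzmb* 31.8-fold and *Gzmc* 51.9-fold lower in untreated *Irf1*-/- than in untreated WT BMDCs. In untreated *Irf3/7*-/- against WT 2 of 14 were called, *Klra7* higher and *Gzmg* lower, where 2.04% were called, 1.17% higher and 0.863% lower.

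Among the member lectin receptors *Klra2* was the 1 called lower with c-di-GMP wherever STING was present. *Klrb1b*, *Klrb1c* and *Klrb1f*, which lie outside the members, were also called lower with c-di-GMP in WT and *Irf3/7*-/- BMDCs. In *Irf1*-/- BMDCs none of them was called, as given further on. *Klra2* (chr6:131219223-131247362, minus strand) encodes Ly49B, a Ly49 receptor known from myeloid cells. It fell from 7.90 FPKM (5.64 to 10.1) to 1.66 (1.09 to 2.21) in WT, from 5.03 (3.65 to 6.40) to 0.669 (0.363 to 0.972) in *Irf1*-/-, and from 7.63 (5.71 to 9.55) to 1.49 (0.981 to 2.02) in *Irf3/7*-/- BMDCs. In *Tmem173*-/- BMDCs it was at 7.49 (5.08 to 9.91) and 7.21 (5.14 to 9.28). It was the 1 member called in *Irf1*-/- BMDCs after c-di-GMP. The log2 changes were -2.18, -2.74 and -2.28 in WT, *Irf1*-/- and *Irf3/7*-/- BMDCs. The response in *Tmem173*-/- differed from that in WT by 2.13 (1.26 to 3.0), and those in *Irf1*-/- and *Irf3/7*-/- by -0.55 (-1.47 to 0.37) and -0.093 (-0.94 to 0.76).

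**Figure D5:**
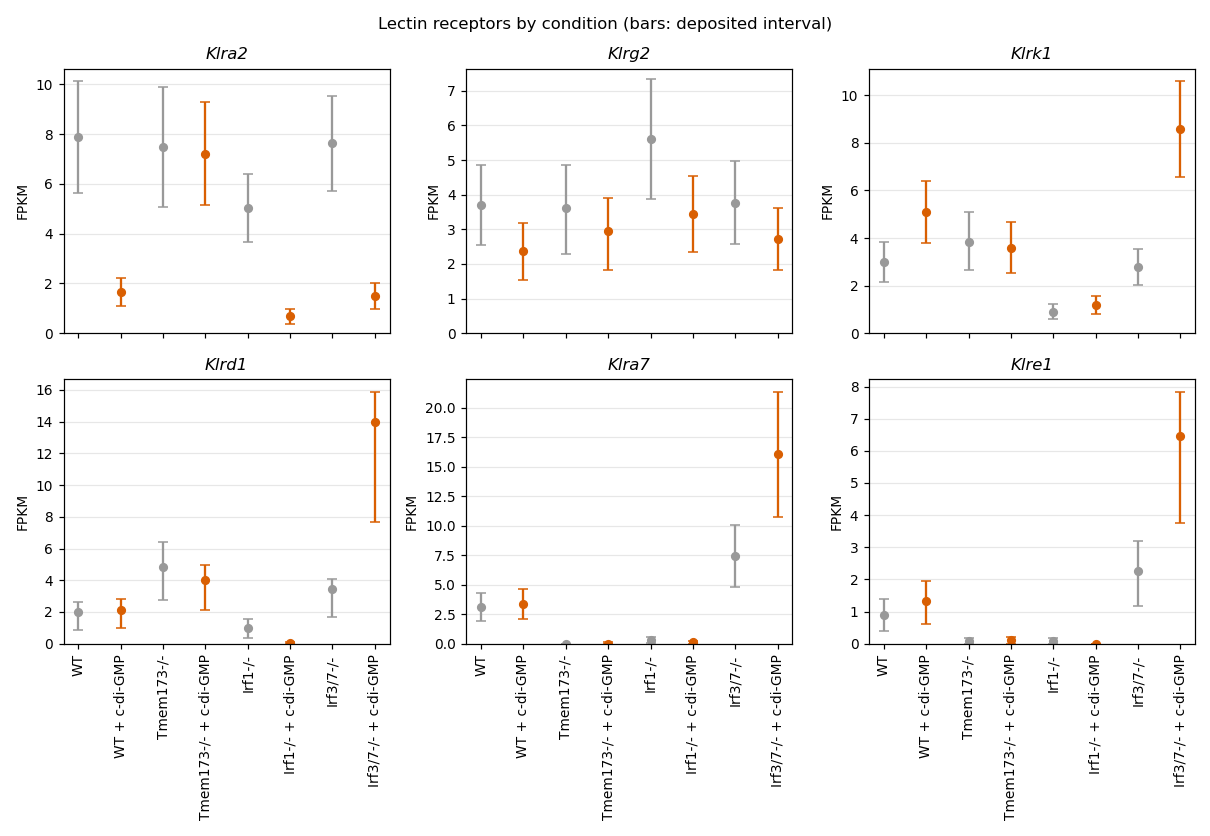
FPKM of 6 lectin receptors in the 8 conditions (linear axes from 0) with the deposited intervals as bars; grey is untreated and orange c-di-GMP. *Klra2* is lower with c-di-GMP in all genotypes but *Tmem173*-/-, while *Klrd1*, *Klra7*, *Klre1* and *Klrk1* are highest in treated *Irf3/7*-/- BMDCs.

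*Klrk1*, the activating receptor NKG2D (chr6:129610323-129623864, minus strand), and *Klrd1*, or CD94, the shared partner chain of the NKG2 receptors (chr6:129591782-129598775, plus strand), were present in *Tmem173*-/- BMDCs, unlike the granzymes. *Klrk1* was at 2.98 and 5.09 FPKM in untreated and treated WT, 3.83 and 3.60 in *Tmem173*-/-, 0.893 and 1.17 in *Irf1*-/-, while *Irf3/7*-/- BMDCs had 2.79 and 8.60. *Klrd1* was at 2.01 and 2.13 FPKM in WT, 4.83 and 4.01 in *Tmem173*-/-, 0.995 and 0.0310 in *Irf1*-/-, while *Irf3/7*-/- BMDCs had 3.47 and 13.97. Both rose with c-di-GMP in *Irf3/7*-/- BMDCs, 3.01-fold for *Klrk1* and 3.94-fold for *Klrd1*, and neither was called in WT.

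Untreated *Klrd1* was 2.33-fold higher in *Tmem173*-/- than in WT BMDCs, with intervals of 2.76 to 6.43 and 0.872 to 2.62 FPKM. Neutrophil markers summed to 19317 FPKM in untreated *Tmem173*-/- against 3934 in untreated WT BMDCs, and their part in the *Klrd1* value was not tested. The response of *Klrd1* in *Irf3/7*-/- exceeded that in WT by 1.90 (0.84 to 2.95), and that of *Klrk1* by 0.84 (0.10 to 1.57). The response of *Klrk1* in *Tmem173*-/- differed from that in WT by -0.84 (-1.66 to -0.027). For *Klrd1* the difference in *Irf1*-/- was -3.14 (-4.40 to -1.89), from values under 1 FPKM in both conditions. The treated one was under the 0.1 FPKM added, so the size depends on that setting. *Klrc1*, the inhibitory NKG2A chain, was listed at 0 in *Tmem173*-/- and *Irf1*-/- BMDCs with and without c-di-GMP, was at 0.282 and 0.422 FPKM in WT, and went from 0.580 to 2.38 FPKM in *Irf3/7*-/- BMDCs.

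The Ly49 receptors other than *Klra2* that reached 1 FPKM were highest in treated *Irf3/7*-/- BMDCs. *Klra7*, the inhibitory Ly49G (chr6:130218605-130233322, minus strand), was at 3.13 FPKM (1.93 to 4.32) and 3.38 (2.11 to 4.64) in WT, 7.4 (4.78 to 10.0) and 16.1 (10.8 to 21.4) in *Irf3/7*-/-, and 0.299 and 0.117 in *Irf1*-/- BMDCs, and was listed at 0 in *Tmem173*-/-. The 16.1 FPKM was the highest value of a receptor in the 8 conditions, but *Klra2* was above *Klra7* in untreated WT BMDCs and *Klrk1* in treated WT BMDCs. It was 2.32-fold higher in untreated and 4.65-fold higher in treated *Irf3/7*-/- than in WT BMDCs. *Klra1*, or Ly49A, was at 0.800 and 0.517 FPKM in WT and 2.46 and 3.63 in *Irf3/7*-/- BMDCs, 6.05-fold higher in treated *Irf3/7*-/- than in treated WT BMDCs. *Klra6* was at 1.23 and 2.61 FPKM in *Irf3/7*-/- and at or under 0.107 elsewhere, and *Klra3* and *Klra9* reached 1.08 and 1.0 FPKM in treated *Irf3/7*-/- BMDCs with intervals from 0 and 0.0333 up. All 5 belong to the shared locus described above.

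Among the genes that followed *Klra7* most closely over the 8 conditions were *Cd8a* (Pearson r = 0.995), *Nkg7*, a granule membrane protein of cytotoxic cells (0.994), *Cd3d* (0.992) and *BC021614* (0.992). *Klre1*, which pairs with *Klri1* or *Klri2* products, was at 0.900 and 1.32 FPKM in WT, 2.25 and 6.45 in *Irf3/7*-/-, 0.0677 and 0.116 in *Tmem173*-/-, and 0.0883 and 0 in *Irf1*-/- BMDCs. *Klrg2* was present in every condition. It was at 3.70 and 2.37 FPKM in WT, 3.61 and 2.94 in *Tmem173*-/-, 5.62 and 3.45 in *Irf1*-/-, while *Irf3/7*-/- BMDCs had 3.76 and 2.73. It was called in none of the 11 comparisons. Summed over the 31 receptors, the level was 23.3 and 19.0 FPKM in WT, 21.3 and 19.5 in *Tmem173*-/-, 13.4 and 5.71 in *Irf1*-/-, while *Irf3/7*-/- BMDCs had 34.0 and 64.4.

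Of the genes that granzymes work with, 5 of 14 rose with c-di-GMP in WT BMDCs and none fell, where 10.5% of all genes tested were called higher. *Srgn*, the granule proteoglycan serglycin, went from 517 to 2966 FPKM, *Stx11*, a syntaxin of granule release, from 15.5 to 70.9, and *Serpinb9* and *Serpinb9b*, of a serpin family that inhibits granzymes, from 109 to 365 and from 69.1 to 184. *Serpinb6b* was the remaining one. The same 5 were called higher in *Irf1*-/- BMDCs, of 12 tested, where 9.67% of all genes were higher. In *Irf3/7*-/- BMDCs 6 of 14 were called higher, *Prf1* and *Fasl*, the Fas ligand, being added and *Serpinb9b* not called, where 10.2% of all genes were higher. None of 11 was called in *Tmem173*-/- BMDCs, where only 0.0552% of all genes tested were called. *Prf1*, perforin, was named after its values were seen and followed the granzymes: it was at 4.27 and 4.30 FPKM in WT, 0.00925 and 0.00692 in *Tmem173*-/-, 0.0689 and 0.0902 in *Irf1*-/-, while *Irf3/7*-/- BMDCs had 3.11 and 13.1, a rise called with c-di-GMP. In FPKM, which is per length, *Prf1* lay far below *Gzmb* in the genotypes with STING, and both were near 0 in *Tmem173*-/- BMDCs.

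Of the 5 adaptors and phosphatases of the receptors, none was called with c-di-GMP in WT, *Tmem173*-/- or *Irf1*-/- BMDCs, and 1 in *Irf3/7*-/-. That was *Fcer1g*, the Fc receptor gamma chain, which went from 420 to 858 FPKM in *Irf3/7*-/- (log2 change 1.03) and from 436 to 860 in WT (0.98), on either side of the 2-fold limit. All 5 were at 7.90 FPKM or more in every condition. *Tyrobp*, or DAP12, which carries the signal of activating receptors, was higher in *Tmem173*-/- than in WT BMDCs with and without c-di-GMP. Of 17 ligands of the receptors, 15 were in the table and 8 were tested in WT BMDCs. The MHC class I genes *H2-K1* (638 to 2003 FPKM), *H2-D1* (623 to 1893) and *H2-T23* (165 to 393), whose product Qa-1 binds CD94/NKG2A, rose with c-di-GMP, and *Cdh1*, E-cadherin, a ligand of KLRG1, fell from 49.4 to 6.06 FPKM. None of these 4 was called in treated *Irf3/7*-/- against WT BMDCs, and in treated *Irf1*-/- BMDCs *Cdh1* was higher.

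The *Klrb1* genes whose symbols end in a letter lie outside the members. With c-di-GMP *Klrb1b* fell from 2.85 to 0.269 FPKM, *Klrb1c*, the NK1.1 antigen, from 1.35 to 0.151, and *Klrb1f* from 1.78 to 0.667 in WT BMDCs. All 4 genes of this list were called lower with c-di-GMP in *Irf3/7*-/- BMDCs, where 7.68% of all genes tested were lower. *Klrb1a*, *Klrb1b* and *Klrb1c* passed the 1 FPKM limit in that comparison only through the untreated condition. None of 3 tested was called in *Tmem173*-/- BMDCs, where only 0.0552% of all genes tested were called. In *Irf1*-/- BMDCs *Klrb1b* went from 0.339 to 0.0645 FPKM, too low to be tested, and *Klrb1f* from 1.54 to 0.978, not called. In *Tmem173*-/- BMDCs *Klrb1b* was at 6.96 and 8.31 FPKM and *Klrb1f* at 2.64 and 3.53.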

How the data were processed

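Gene expression was measured by RNA-seq (stranded mRNA libraries, 35-bp paired-end reads per the study's methods) in 16 labelled samples. The authors ran Cuffdiff (version 1.06 per the labels), which combined the samples of a condition, and deposited 1 FPKM per gene and condition with its confidence bounds and a status. Read totals, and so the depth of each sample, are unknown; the aligner, the annotation and Cuffdiff's strand setting are not given in the sources used here. Per the labels the build was mm9, but 21454 of 21681 single-name loci (98.953%) overlapped the same gene in GRCm38 (GENCODE M21), so GRCm38 positions are given. The treated *Tmem173*-/- column was matched by its name (TM173GDP), and 1 further column set (an *Irf7* knockout) was not used. The study's text also gives a c-di-GMP dose other than that of the labels.

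Changes were computed as log2(FPKM + 0.1), which understates changes of low genes, in Python 3.11.15 with pandas 2.3.3 and numpy 2.4.6. Genes were called over the whole table by fold, non-overlapping deposited intervals, at least 1 FPKM and status OK, and 23245 of 23356 genes had status OK in all conditions. Named genes were the members at 1 FPKM or more, for each list the called genes with the largest WT change, and the genes of highest Pearson correlation. *Prf1*, *Tyrobp*, *Fcer1g*, *Ncr1*, *Eomes*, *Tbx21*, *Cd6*, *Lat*, *Lck*, *Klrb1a*, *Cma1*, *Fasl* and the *Cd3* and *Cd8* genes were named after their values were seen. The members and lists were chosen with earlier results of these data known. Scripts were tested on simulated data. A gene among those most like *Klra7* in pattern is not reported here.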

Additional observations from a re-analysis of the deposited data

Results flagged for a closer look

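Some results stood out because the response to c-di-GMP differed between a knockout and WT BMDCs, with an interval of the difference, from the deposited bounds, that left out 0, and the gene was called in the response of at least 1 of the compared genotypes. No p-value was computed, since 1 value per condition was deposited. The share of all genes that would be flagged in this way was not computed either.

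In *Irf3/7*-/- minus WT the difference of the log2 responses was 1.60 for *Gzma*, 1.71 for *Gzmb*, 1.25 for *Gzmc*, 1.14 for *Gzmd*, 1.38 for *Gzme*, 1.87 for *Gzmf* and 1.43 for *Gzmg*. It was 1.90 for *Klrd1* and 0.84 for *Klrk1*. *Gzmb*, for example, went from 362 to 1242 FPKM in *Irf3/7*-/- and from 321 to 336 in WT BMDCs. In *Irf1*-/- minus WT the difference was -1.26 for *Gzme*, but this restates the WT rise: at 0.0250 and 0.0287 FPKM, under the 0.1 FPKM added, the *Irf1*-/- response had to come out near 0. In *Tmem173*-/- minus WT it was 2.13 for *Klra2*, which fell in WT and was at 7.49 and 7.21 FPKM in *Tmem173*-/- BMDCs. The interval also left out 0 for genes called in neither genotype: 0.83 for *Gzmb* and -3.14 for *Klrd1* in *Irf1*-/- minus WT, and -0.84 for *Klrk1* in *Tmem173*-/- minus WT. *Klrd1* was at 0.0310 FPKM in treated *Irf1*-/- BMDCs, under the 0.1 FPKM added, so the size of its difference depends on that setting.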

How the results depend on the processing

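No paired analysis was possible because the deposited columns hold 1 value per condition and carry no replicate numbers, and for the same reason no replicate could be left out. Each result was recomputed under 7 alternatives. With a minimum of 5 FPKM the members called fell to 2 (from 4) in the WT response, to 5 (from 10) in treated *Tmem173*-/- against WT, to 5 (from 12) in treated *Irf1*-/- against WT, to 3 (from 8) in both untreated *Tmem173*-/- and untreated *Irf1*-/- against WT, and to 1 (from 2) in untreated *Irf3/7*-/- against WT, where fewer members were tested. With a fold threshold of 4 they fell to 1 in the WT response, 5 (from 13) in the *Irf3/7*-/- response and 0 in untreated *Irf3/7*-/- against WT. Without a filter they rose to 2 (from 1) in the *Irf1*-/- response and 13 in untreated *Tmem173*-/- against WT. In untreated *Irf3/7*-/- against WT they were 1 with a pseudocount of 1, and 6 by fold alone or when the interval of the difference had to leave out 0. Of 973 values recomputed for 139 results on single members, 894 kept their side of the threshold and direction, 61 were no longer past it, 15 newly passed it, 3 moved and 0 turned in direction. Median centring changed none of these.

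The limits are that counting and biological spread cannot be told apart here, that the *Klra* genes of the shared locus share 1 listed locus, and that values under 1 FPKM rest on an unknown number of reads.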

Other observations

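*Ifng*, interferon gamma, was the 1 further gene, beside *Gzma*, *Gzmc* and *Mir762*, that was at 10 FPKM or more in both WT conditions and listed at 0 in both *Tmem173*-/- conditions, among 5357 such genes. Of the protease genes next to the granzyme cluster, *Mcpt8* and *Ctsg* had another order: *Mcpt8* was at 23.3 and 24.5 FPKM in untreated and treated WT BMDCs, 16.3 and 26.0 in *Irf1*-/-, and 47.5 and 74.0 in *Irf3/7*-/-, and *Ctsg* at 6.44 and 6.11, 15.4 and 14.9, and 16.2 and 17.9 FPKM.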
